A study of Mus musculus with 24 samples.

Results

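The mitochondrial genome supplied 58 of the 79 windows of 100 bp that were listed as higher in DNA 5-methylcytosine (5mC) immunoprecipitation signal, at an adjusted p under 0.1, after Nsun2 knockdown in Tet2-knockout (KO) mouse embryonic stem (mES) cells. The members described here were all windows of the mitochondrial chromosome found in any of 4 lists of differential windows, together with the listed windows that start between 24612601 and 24614101 on chromosome 1, where the nuclear genome carries a copy of mitochondrial sequence. They came to 58 mitochondrial windows and 11 chromosome 1 windows, or 69 of the 14618 distinct windows of the 4 lists. They were chosen by the measured difference in MeDIP signal between siNsun2 and siNC in Tet2 KO, so the size and direction of that difference are given as a description without a test.

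Mitochondrial DNA is a small circular genome present in many copies per cell. It encodes core subunits of the respiratory complexes I, III, IV and V, the RNAs of the mitochondrial ribosome and the tRNAs that serve it, and its D-loop is a control region from which replication and transcription start. NSUN2 is an RNA methyltransferase that places 5-methylcytosine on tRNAs and other RNAs, and TET2 oxidizes 5-methylcytosine in DNA and RNA. Methylated DNA immunoprecipitation sequencing (MeDIP-seq) counts DNA fragments pulled down by a 5mC antibody. Its signal at mitochondrial windows depends on how much mitochondrial DNA a sample holds as well as on how much of it is methylated.

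The groups compared were Tet2-KO mES cells given control siRNA (siNC, 3 libraries) and Tet2-KO mES cells given siRNA against Nsun2 (siNsun2, 3 libraries). Both carried the Tet2 KO, were grown with LIF, CHIR99021 and PD0325901 and were transfected with Lipofectamine RNAiMAX, and for 1 window WT mES cells given siNC (3 libraries) were compared as well. The Tet2-KO line (Tet2-/-) and the WT line came from another laboratory, so a Tet2 difference here is also a difference between cell lines. The other lists compared siNsun2 with siNC in WT cells and Pspc1 KO with its own WT cells. The libraries held 8.92 to 14.2 M reads in Tet2-KO siNC, 11.1 to 14.0 M in Tet2-KO siNsun2 and 11.5 to 15.4 M in WT siNC. In the longest list, the counts of Tet2-KO siNC replicates 2 and 3 were within sampling noise of each other, with a chi-square of 0.968 per degree of freedom against 1.45 and 1.51 for the pairs with replicate 1, and the same held for WT siNC, at 1.00 against 1.43 and 1.26. In each mean ± SD over siNC such a pair was counted as 1 sample, giving n = 2, unless stated otherwise. In the shorter list for siNsun2 in Tet2 KO, the pairs of siNsun2 replicates had values of 0.827, 0.845 and 0.85 and those of siNC 1.01, 0.985 and 0.838. Over the 58 mitochondrial windows alone they were 1.26 for siNsun2 replicates 1 and 2, 0.818 for 1 and 3 and 1.12 for 2 and 3, against 1.29, 1.2 and 0.811 for the same pairs of siNC. Counting a siNC pair as 1 sample therefore rests on the longest list, which holds no siNsun2 library. The siNsun2 libraries were kept at n = 3, although replicates 1 and 3 were about as alike over the mitochondrial windows as siNC replicates 2 and 3, and the spread of the siNsun2 libraries over the shorter list was no more than counting noise. The study calls the replicates behind its genome-wide data biological, and the labels do not say whether these libraries came from separate cultures. DNA windows hold no measure of Nsun2 transcript or of stem cell markers, so neither the knockdown nor the cell identity could be checked. The labels give input libraries for WT and Pspc1-KO cells and none for the siRNA groups. A change in mitochondrial DNA copies and a change in its methylation therefore cannot be told apart.

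Reference sequences are shown for the windows on which the results turn, on mm10 and 5′ to 3′, with each CpG, the dinucleotide at which the enzymes of nuclear DNA methylation act, in capitals. The first pair had the lowest log2 fold changes of the mitochondrial windows and lies in mt-Nd2, which encodes a complex I subunit, and in mt-Rnr2, the gene of the large ribosomal RNA. The third, in mt-Nd5, held the most reads, and the next, across mt-Tc and mt-Ty, was also listed for Tet2 KO and was added after its values were seen. The last pair is the deepest listed window of the chromosome 1 copy, read on its minus strand, with the mitochondrial stretch it matches.
mt-Nd2 and mt-Tm, chrM:3901-4000, plus strand: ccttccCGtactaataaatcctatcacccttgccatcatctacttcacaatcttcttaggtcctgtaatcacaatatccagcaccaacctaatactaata
mt-Rnr2, chrM:1301-1400, plus strand: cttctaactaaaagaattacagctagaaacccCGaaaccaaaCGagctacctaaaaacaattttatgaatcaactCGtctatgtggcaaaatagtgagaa
mt-Nd5, chrM:12601-12700, plus strand: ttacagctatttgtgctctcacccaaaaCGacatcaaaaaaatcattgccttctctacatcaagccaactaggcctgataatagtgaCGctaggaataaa
mt-Tc and mt-Ty, chrM:5201-5300, plus strand: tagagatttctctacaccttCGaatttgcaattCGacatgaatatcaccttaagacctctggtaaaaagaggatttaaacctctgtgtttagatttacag
chromosome 1 copy, chr1:24612601-24612700, minus strand: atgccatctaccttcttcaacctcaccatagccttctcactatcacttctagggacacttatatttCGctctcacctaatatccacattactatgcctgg
mt-Nd4l, chrM:9877-9976, plus strand: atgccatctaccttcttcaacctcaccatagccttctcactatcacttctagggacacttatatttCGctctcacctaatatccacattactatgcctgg
The copy window and its mitochondrial match are identical at every base, so a read that falls wholly inside either carries no mark of its origin. The mt-Rnr2 window holds 3 CpG sites, while the mt-Nd2 window holds 1.

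Nsun2 knockdown in Tet2 KO listed 244 of 4359686 tested windows, or 0.00560%, of which 79 were higher with siNsun2, or 0.00181% of those tested. The 58 mitochondrial windows and the 11 chromosome 1 windows made up 69 of these 79, or 87.3%, and none of the 165 lower windows (0.00378% of those tested). The mitochondrial windows were 58 of the 163 windows of the mitochondrial genome, or 35.6%. Since the list itself chose these windows, the shares describe it and were not tested. In each of the 58 windows, the lowest siNsun2 library lay above the highest siNC library, and the smallest such ratio was 1.25. All 244 listed windows were likewise without overlap between the groups, so this separation came with being listed.

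Summed over the 58 mitochondrial windows, reads made up 0.0319%, 0.0348% and 0.0347% of the library in siNC replicates 1, 2 and 3 and 0.0620%, 0.0668% and 0.0646% in the siNsun2 replicates. The means were 0.0333% ± 0.0020 (SD, n = 2) and 0.0645% ± 0.0024 (SD, n = 3), and with every library weighted equally the ratio was 1.91 ± 0.07 (SD over the siNsun2 replicates). Every siNsun2 library was above every siNC library. The other listed sets framed this ratio. It was 1.81 at the chromosome 1 copy, 1.70 at the other 10 windows listed as higher and 0.609 at the 165 windows listed as lower, as the plot of read shares shows.

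**Figure D1:**
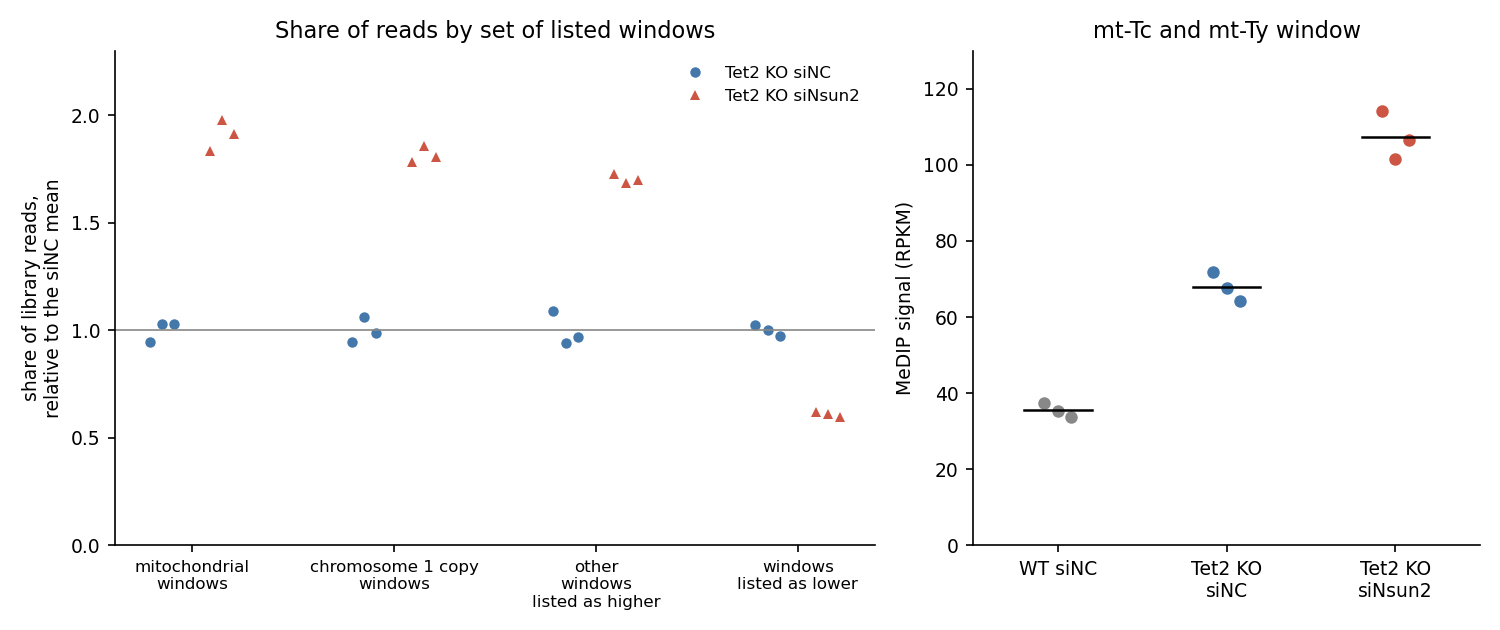
Left, the share of library reads in each set of listed windows, divided by the mean of the 3 Tet2 KO siNC libraries, with 1 point per library; the mitochondrial windows sit between 1.83 and 1.98 with siNsun2. Right, the MeDIP signal in RPKM at the window across mt-Tc and mt-Ty in WT siNC, Tet2 KO siNC and Tet2 KO siNsun2 libraries, with bars at the mean of each group; the groups do not overlap.

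Per window, the difference was expressed as the log2 fold change of mean RPKM (reads scaled to window length and library size) in siNsun2 over siNC, with 0.1 added to both, and its SD was taken over the 3 siNsun2 replicates. The median over the 58 windows was 1.05, with an interquartile range of 0.73 to 1.25 and extremes of 0.51 and 1.89. Against the mean of siNC, the replicates each gave a median of 1.01 to 1.02. The median level was 43.6 RPKM in siNC (range 10.4 to 204) and 85.8 RPKM in siNsun2 (range 37.4 to 324). Each window held 184 to 2000 reads over the 6 libraries, with a median of 504, which gave a counting error of 0.07 to 0.26 on the log2 scale. The relative methylation score, which MEDIPS corrects for CpG density, is derived from the same reads and was higher with siNsun2 in all 58 windows, by 0.0167 to 0.117 on its scale from 0 to 1. Scaling to the listed windows themselves, most of which were lower, raised the log2 fold changes, the median of all listed windows by 0.59 (TMM factors) or 0.64 (DESeq2 size factors).

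**Figure D2:**
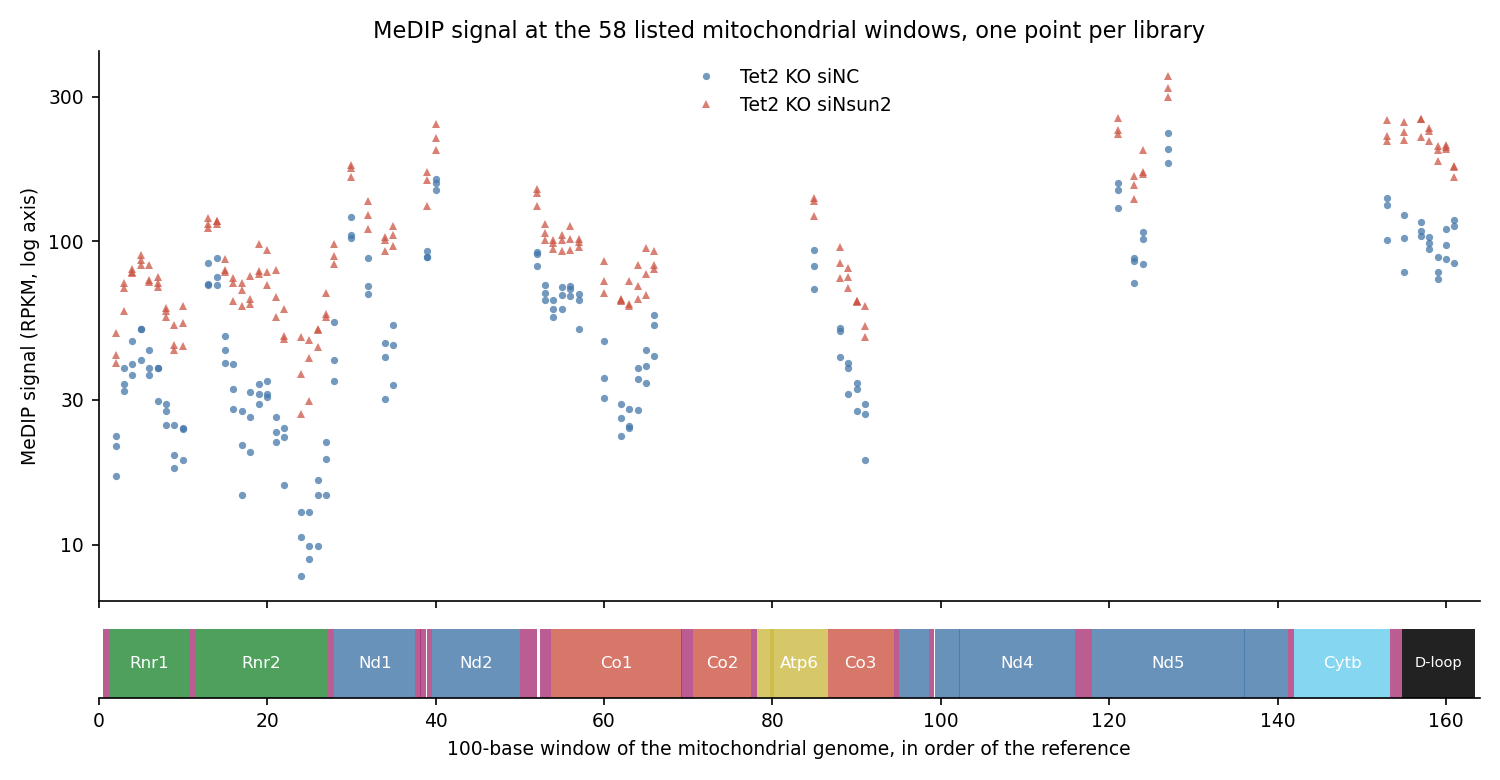
MeDIP signal in RPKM on a log axis at the 58 listed mitochondrial windows, with 1 point for each of the 3 Tet2 KO siNC and 3 Tet2 KO siNsun2 libraries, against the order of the 163 windows along the reference; the band below shows rRNA genes (green), complex I (blue), complex III (light blue), complex IV (red), complex V (yellow) and tRNA genes (purple) and the D-loop (black). At each window the siNsun2 points lie above the siNC points, and long stretches of the genome hold no listed window.

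The listed windows overlapped 17 of the 37 mitochondrial genes, namely 2 of 2 rRNA genes, 7 of 13 protein-coding genes and 8 of 22 tRNA genes. They fell into 18 runs of neighbouring windows, of which the longest covered chrM:1201-2200 in mt-Rnr2 (10 windows) and chrM:101-1000 in mt-Rnr1 (9 windows). The longest stretches without a listed window were chrM:9101-12000, from mt-Co3 to mt-Nd5 (29 windows), chrM:12701-15200 (25 windows) and chrM:6601-8400 (18 windows). No listed mitochondrial window touched mt-Nd3, mt-Nd4l, mt-Nd4 or mt-Nd6, which encode complex I subunits, mt-Co2 of complex IV or mt-Atp8 of complex V. The deposited lists give no values for unlisted windows, so the signal there is unknown and may differ by less than the threshold asked for. All of mt-Co2, mt-Atp8, mt-Nd3 and mt-Nd4l and most of mt-Nd4 lie in chrM:6390-11042, a segment with a near-identical copy on chromosome 1. Of the 38 windows wholly inside it with at least 1 CpG, 7 were listed, against 58 of 129 over the mitochondrial genome. Windows without a CpG, such as the one assigned to mt-Atp8, were in no list. What the copy and the CpG content contribute was not tested.

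The rRNA genes had the highest share of listed windows when all windows of each class were counted. Such counts include windows without a CpG. Those of the tRNA genes and of complexes I, IV and V also include windows of the segment copied on chromosome 1, which holds no rRNA gene. Shares by class without these windows were not computed. Each window was assigned to the gene with the largest overlap, and a tie went to the first such gene along the genome. Of the rRNA windows, 23 of 25 (92.0%) were listed, with a median log2 fold change of 1.18. The small ribosomal RNA gene mt-Rnr1 (chrM:70-1024, plus strand) had 9 listed windows with a median of 1.05 and a range of 0.86 to 1.25. Its deepest window, chrM:401-500, measured 51.6, 40.5 and 51.5 RPKM in siNC and 90.0, 83.6 and 86.7 RPKM in siNsun2, a log2 fold change of 0.86 ± 0.05. The siNC libraries were lowest in replicate 2, and the groups lay well apart.

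The large ribosomal RNA gene mt-Rnr2 (chrM:1094-2675, plus strand) had 14 listed windows, and its fold change differed from one end to the other. Near its start, the deepest window, chrM:1301-1400, measured 76.2, 71.8 and 88.2 RPKM in siNC and 117, 116 and 115 RPKM in siNsun2, with a log2 fold change of 0.56 ± 0.02, among the 3 lowest of the mitochondrial windows. Near its end, chrM:2301-2400, with one of the highest log2 fold changes, measured 7.85, 12.8 and 10.6 RPKM in siNC and 27.0, 48.6 and 36.6 RPKM in siNsun2, giving 1.83 ± 0.42. Its lowest siNsun2 library was 2.11 times its highest siNC library, and the siNsun2 replicates were spread widely, with replicate 1 the lowest. This window was also the shallowest of the 58, with 184 reads.

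The D-loop, the control region with no protein product, carried 6 listed windows of 9, with a median log2 fold change of 1.17. Its deepest window, chrM:15601-15700, measured 104, 116 and 108 RPKM in siNC and 221, 253 and 254 RPKM in siNsun2, a log2 fold change of 1.15 ± 0.11. The groups were separated by more than the whole range within either. The 6 windows had siNC means of 81.0 to 109 RPKM, and the 5 other listed windows within that range of levels had log2 fold changes of 0.67 to 0.89 against 0.71 to 1.28 in the D-loop. The lowest of the D-loop was chrM:16001-16100, at 0.71 ± 0.06, which contains the conserved sequence block CSB1 (chrM:16035-16058) and overlaps part of CSB2 (chrM:16089-16104), elements near the start of heavy-strand replication. CSB3 (chrM:16114-16131) and the second extended termination-associated sequence ETAS2 (chrM:15515-15558) overlapped no listed window, while ETAS1 (chrM:15451-15509) overlapped one.

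Complex IV, cytochrome c oxidase, had 14 listed windows of 31, with a median log2 fold change of 1.01. The catalytic subunit gene mt-Co1 (chrM:5328-6872, plus strand) held 10 of them, from 0.57 to 1.36. Its deepest window, chrM:5501-5600, measured 69.5, 71.1 and 66.3 RPKM in siNC and 93.6, 112 and 102 RPKM in siNsun2, a log2 fold change of 0.57 ± 0.13, also among the 3 lowest of the mitochondrial windows. In mt-Co3 (chrM:8607-9390, plus strand), which encodes another core subunit, 4 windows ranged from 0.83 to 1.11, and the deepest, chrM:8701-8800, measured 41.5, 51.9 and 50.8 RPKM in siNC and 75.6, 85.0 and 96.2 RPKM in siNsun2 (0.83 ± 0.17). Within both genes all siNsun2 libraries exceeded all siNC libraries at each listed window.

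Complex I, NADH dehydrogenase, had 9 listed windows of 63 (14.3%), with a median log2 fold change of 0.72. The window with the most reads of the whole set lay in mt-Nd5 (chrM:11742-13565, plus strand). It measured 182, 203 and 229 RPKM in siNC and 300, 352 and 321 RPKM in siNsun2, a log2 fold change of 0.67 ± 0.12. In mt-Nd1 (chrM:2751-3707, plus strand), the deepest window, chrM:2901-3000, measured 105, 102 and 121 RPKM in siNC and 163, 179 and 174 RPKM in siNsun2 (0.65 ± 0.07). Both genes were assigned 4 listed windows each, from 0.67 to 0.89 in mt-Nd5 and from 0.65 to 1.33 in mt-Nd1. The single listed window of mt-Nd2, chrM:3901-4000, had the lowest log2 fold change of all members on the mitochondrial genome, 0.51 ± 0.14, with 148, 156 and 160 RPKM in siNC and 200, 244 and 220 RPKM in siNsun2.

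Complexes III and V had 1 listed window each. In mt-Cytb, the cytochrome b gene of complex III, chrM:15201-15300 measured 101, 139 and 132 RPKM in siNC and 215, 251 and 223 RPKM in siNsun2 (0.89 ± 0.12). In mt-Atp6, a subunit of the ATP synthase proton channel, chrM:8401-8500 measured 69.5, 93.8 and 83.3 RPKM in siNC and 121, 139 and 136 RPKM in siNsun2 (0.69 ± 0.11). Replicate 1 was the lowest library of its group in both windows.

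Of the windows assigned to tRNA genes, 4 of 15 were listed, with a median log2 fold change of 0.72. The windows assigned to mt-Tf, mt-Tv, mt-Ti, mt-Ta, mt-Td, mt-Tg, mt-Th, mt-Ts2 and mt-Tt hold no CpG. None of the 4 lists holds such a window, so the share is higher among tRNA windows with a CpG. The highest was mt-Tl1 (chrM:2701-2800), a leucine tRNA gene, at 34.7, 40.5 and 54.3 RPKM in siNC and 84.6, 89.3 and 97.8 RPKM in siNsun2 (1.07 ± 0.11). This window is covered equally by mt-Tl1 (chrM:2676-2750) and mt-Nd1 (chrM:2751-3707), and only the rule for ties placed it with mt-Tl1. The methionine tRNA gene mt-Tm (chrM:3801-3900) measured 88.5, 93.1 and 88.9 RPKM against 131, 169 and 159 RPKM (0.76 ± 0.19), and the asparagine tRNA gene mt-Tn (chrM:5101-5200) measured 90.8, 92.4 and 83.3 RPKM against 148, 144 and 131 RPKM (0.67 ± 0.09). The mt-Tn window contains the origin of light-strand replication (chrM:5160-5191). A tRNA gene is shorter than a window, so each of these values includes neighbouring sequence. Between the classes with the highest and lowest median, rRNA and complex V, the log2 fold change differed by 0.50, and complex V rests on a single window.

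**Figure D3:**
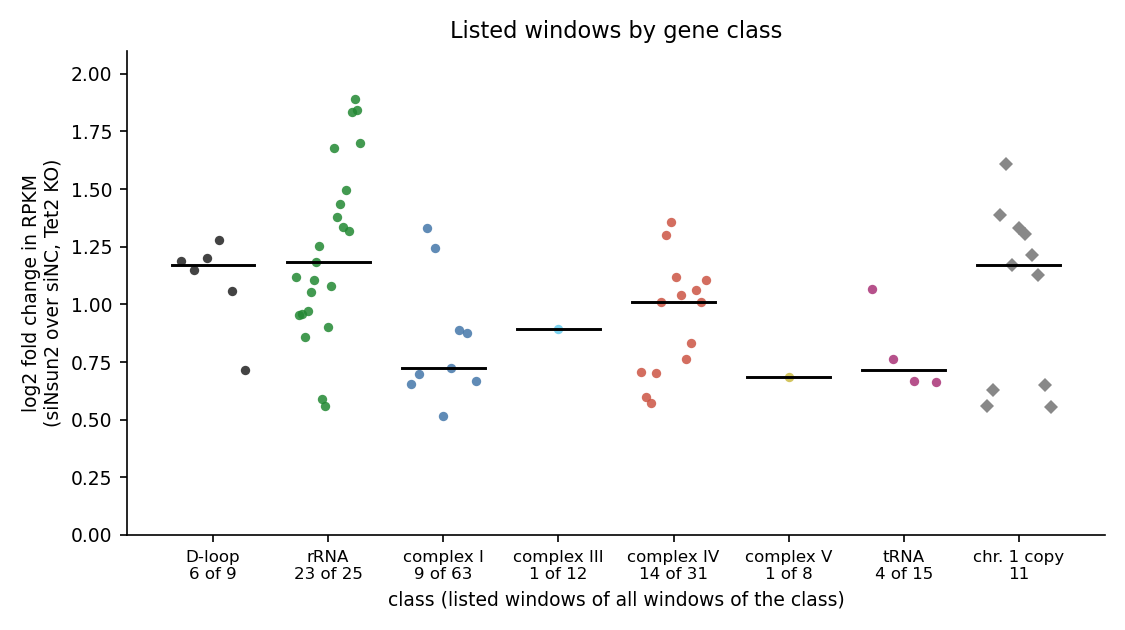
Log2 fold change in RPKM (siNsun2 over siNC in Tet2 KO) of each listed window by gene class, with 1 point per window in order along the genome, a bar at the class median and, under each class, the listed windows out of all its windows. The rRNA windows span 0.56 to 1.89 and the D-loop windows 0.71 to 1.28, and the chromosome 1 copy windows span 0.56 to 1.61.

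The fold change of a window went with its level. The 19 windows with the lowest siNC levels (10.4 to 33.4 RPKM) had a median log2 fold change of 1.34, the middle 20 had 0.96, and the 19 with the highest (75.5 to 204 RPKM) had 0.72. Over the 58 windows Spearman's rho of siNC level with log2 fold change was -0.72, and that of siNC level with the difference in RPKM was 0.70. The level enters both measures, the windows share their libraries, and a shallow window has to change by more to pass a threshold, so these are descriptions of a selected set. Neighbouring listed windows were alike, with a rho of 0.84 between the log2 fold changes of 40 adjacent pairs, and sequenced fragments can reach across several windows.

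**Figure D4:**
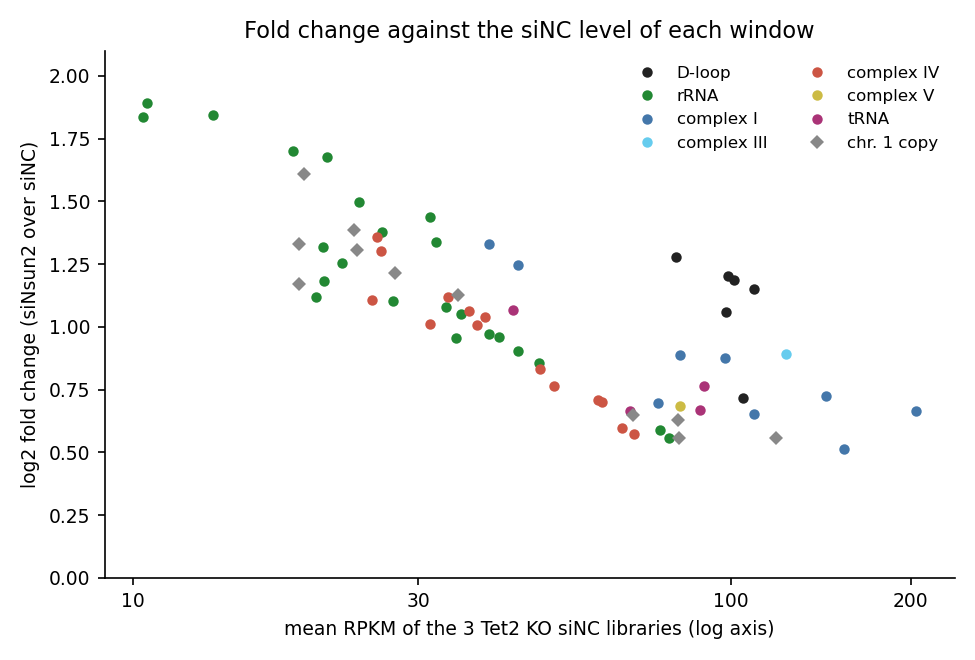
Log2 fold change (siNsun2 over siNC) against the mean RPKM of the 3 Tet2 KO siNC libraries on a log axis, with 1 point per listed window coloured by gene class and the chromosome 1 copy as grey diamonds. The fold change falls from 1.89 at the least covered windows towards 0.51, and the D-loop windows lie above other windows of their level except for one.

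Spearman's rho of CpG count with log2 fold change was 0.15 over the same 58 windows. Windows with 1 CpG had a median log2 fold change of 1.08 (19 windows), those with 2 had 0.96 (15 windows) those with 3 had 1.06 (12 windows) and those with 4 to 7 had 1.25 (12 windows). The CpG coupling factor deposited with each window was the same as the count of CpG in the reference in all 58. The listed windows held 1 to 7 CpG sites, with a mean of 2.47, and the 105 unlisted ones held 0 to 6, with a mean of 1.37. Of the unlisted windows 34 had no CpG. None of the 4 lists holds a window with a coupling factor of 0, so the comparison is closer among windows with at least 1 CpG, of which 58 of 129 (45.0%) were listed and the mean was 2.47 in listed and 2.03 in unlisted windows. GC content was similar, with medians of 37.0% and 36.0% in all listed and unlisted windows.

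The chromosome 1 copy of mitochondrial DNA spans chr1:24611535-24616188 on the minus strand and matches chrM:6390-11042 over 4654 aligned bases at 99.936% identity. The differences were the substitutions A6393T and T9461C, mitochondrial base first and position counted along the mitochondrial reference, and 1 base present only in the copy at position 9821. GENCODE annotates pseudogenes there, Gm29216 of mt-Co1, Gm28661 of mt-Co2, Gm10925 of mt-Atp6, Gm28437 of mt-Co3, Gm28438 of mt-Nd3, Gm10222 of mt-Nd4l and Gm28439 of mt-Nd4. Bowtie2 reports a single best position for each read, and reads from the copy and from mitochondria can therefore be exchanged between the places. Of the 46 mitochondrial windows wholly inside the copied segment, 7 were listed on the mitochondrial chromosome, against 58 of 163 over the whole mitochondrial genome. Among windows with at least 1 CpG these counts were 7 of 38 and 58 of 129. With the copy windows included, 14 distinct positions of the segment were listed at either place.

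The median log2 fold change of the 11 listed copy windows was 1.17 ± 0.11 with a range of 0.56 to 1.61. Their siNC means were 19.0 to 119 RPKM and their siNsun2 means 42.8 to 175 RPKM, and no window overlapped between the groups. The deepest, chr1:24612601-24612700 in Gm10222, measured 122, 119 and 116 RPKM in siNC and 166, 189 and 169 RPKM in siNsun2 (0.56 ± 0.10). The next, chr1:24612701-24612800 in Gm28438 and matching mt-Tr, measured 87.4, 78.2 and 79.0 RPKM in siNC and 123, 139 and 116 RPKM in siNsun2 (0.63 ± 0.13). Their mitochondrial matches, which start at 9877 and 9778, were not listed, and so mt-Nd4l, mt-Tr and mt-Nd3 entered the lists only through the nuclear copy.

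In 4 positions both the copy window and the mitochondrial window covering 77 of its bases were listed, 3 in mt-Co3 and 1 in mt-Atp6. The mean signal of the copy divided by that of the mitochondrial window was 0.87 to 1.00 in siNC and 0.91 to 1.09 in siNsun2. The log2 fold changes of copy and mitochondrial window were 1.30 and 1.11, 1.22 and 1.01, 1.13 and 1.06, and 0.56 and 0.69. With the signal so alike in every pair, the part of each place in these reads was not tested. The 38 listed mitochondrial windows whose middle 32 bases have no identical copy in the nuclear genome gave a median of 1.01. Apart from the chromosome 1 copy, no nuclear window in any of the 4 lists overlapped a mitochondrial match of at least 100 bases.

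**Figure D5:**
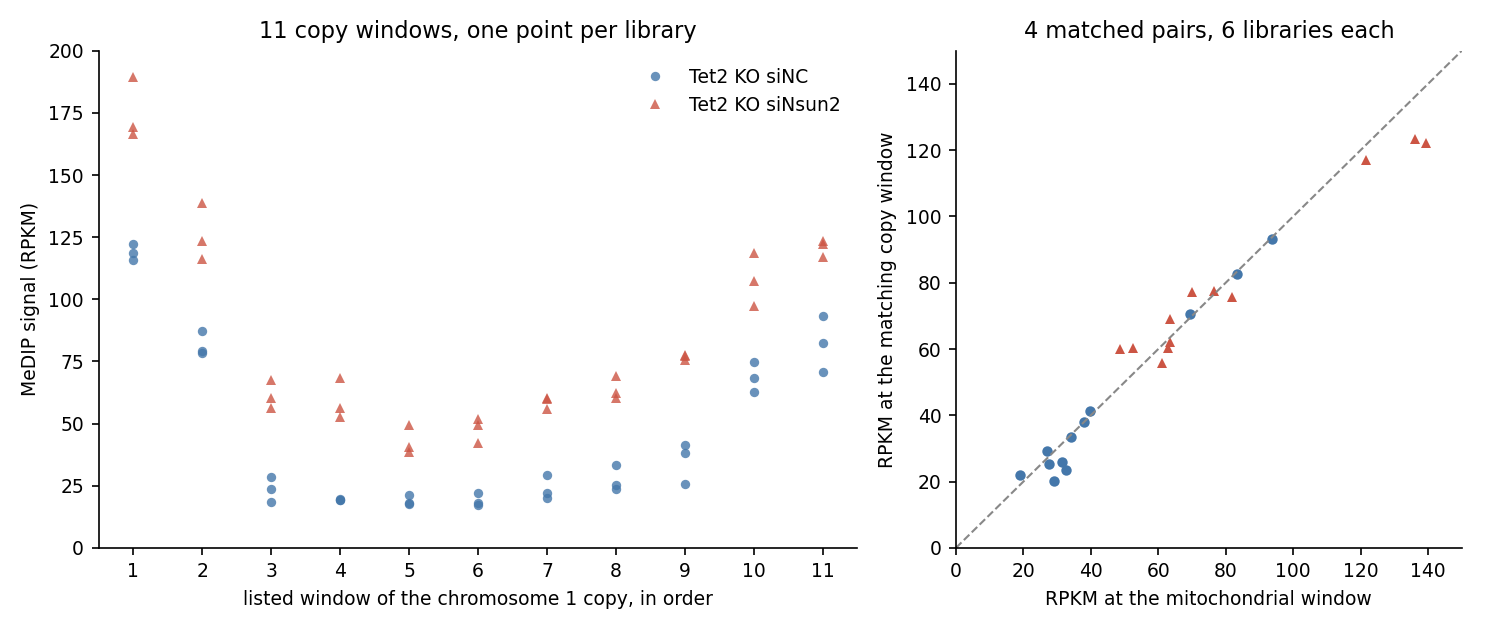
Left, MeDIP signal in RPKM at the 11 listed windows of the chromosome 1 copy in order along the chromosome, with 1 point for each Tet2 KO siNC (circles) and Tet2 KO siNsun2 (triangles) library; the siNsun2 points lie above the siNC points in each window. Right, the 4 positions listed at both places, with the RPKM of the copy window against that of its mitochondrial match in each of 6 libraries and a dashed line at equality; the points follow the line.

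Tet2 KO against WT, both with siNC, listed 14279 of 4252847 tested windows (0.336%), and 2414 of them (0.0568%) were higher in Tet2 KO. A single mitochondrial window was among these, chrM:5201-5300, which covers most of mt-Tc and part of mt-Ty, the cysteine and tyrosine tRNA genes on the minus strand, and begins just past the origin of light-strand replication. It measured 37.3, 35.4 and 33.9 RPKM in WT siNC and 71.7, 67.5 and 64.2 RPKM in Tet2-KO siNC, a log2 fold change of 0.93 with every library weighted equally. The SD over Tet2-KO siNC was 0.09 with replicates 2 and 3 as 1 sample (n = 2) and 0.08 with the 3 libraries kept apart. With siNsun2 in Tet2 KO it measured 114, 101 and 107 RPKM (0.66 ± 0.09 over Tet2-KO siNC). The 3 groups did not overlap. Both comparisons chose the window and share the Tet2-KO siNC libraries. A further copy window, chr1:24615001-24615100 in Gm28661, which matches mt-Co2 (chrM:7478-7577), lies outside the range of starts that defines the members and was listed for Tet2 KO as well. It measured 49.4, 52.7 and 47.6 RPKM in WT siNC and 85.2, 92.4 and 76.2 RPKM in Tet2-KO siNC, a log2 fold change of 0.76. Its SD over Tet2-KO siNC was 0.01 with replicates 2 and 3 as 1 sample (n = 2), which hides their difference, and 0.14 with the 3 libraries kept apart.

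Nsun2 knockdown in WT cells listed 31 of 4148675 tested windows (0.000747%), of which 0 were mitochondrial or in the copy, and Pspc1 KO listed 307 of 5378176 (0.00571%), also with 0. The WT siNsun2 libraries have no deposited values at the mitochondrial windows, and whether the response to siNsun2 differs between WT and Tet2 KO was not tested. Among 30 nuclear genes for mitochondrial DNA upkeep and cytosine methylation, such as Tfam, which packages mitochondrial DNA, its polymerase gene Polg, the RNA methyltransferase genes Nsun2, Nsun3 and Nsun4, and the Dnmt and Tet genes, 0 had a listed window within the gene or 1000 bases before its start for siNsun2 in Tet2 KO, siNsun2 in WT or Pspc1 KO. By the same rule 0.242%, 0.0548% and 0.224% of 21911 nuclear protein-coding genes had one, so a count of 0 among 30 genes shows nothing particular to them. For Tet2 KO there were 3 of 30, against 920 of the 21911 genes (4.2%), namely Tet2 itself with 5 windows, Dnmt1, which maintains DNA methylation, with 1, and Polrmt, the mitochondrial RNA polymerase gene, with 1. Tet2 is the gene altered in this line, and the direction of these windows is not reported here. The 30 genes were also longer, with a median of 20.8 kb against 17.4 kb.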

How the data were processed

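MeDIP-seq libraries of mES cells were analysed from tables of 100-bp windows, 1 for each of 4 comparisons. The authors trimmed reads with Trimmomatic 0.39, aligned them to mm10 with Bowtie2 2.4.1, removed duplicates with Picard and compared groups with MEDIPS (edgeR test, minimum row sum 10). The deposited counts are raw reads per window, and the RPKM values were scaled by the authors to window length and library size. The relative methylation score is the authors' fraction-like score from 0 to 1. The deposited log2 fold changes hold the authors' findings and were not used. The deposited p-values, from the authors' edgeR test and after Bonferroni adjustment under 0.1 in every listed window, served only to recover the number of windows tested. Library totals were recovered from count and RPKM in windows of over 100 reads. Log2 fold changes compare mean RPKM between groups after adding 0.1 to each.

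Fitted values used edgeR 4.0.16 (quasi-likelihood, recovered totals) over all 244 listed windows. The fitting code was tried on simulated counts in which most windows were unchanged. That setting differs from a list of selected windows, so it is no check of the values fitted here. Sequences and genes came from RefSeq GRCm38 and GENCODE M21, the build of mm10, and nuclear copies from blastn 2.17.0. Deviations of same-numbered siNsun2 and siNC libraries correlated at 0.18, 0.13 and 0.12 over 244 windows, above the limit of 0.1 set for pairing, and what a replicate number marks is not labelled. Values in every library were given for the deepest window of each gene or D-loop, the 3 highest fold changes (2 of these windows are not reported here) and the 3 lowest, the 2 deepest copy windows and mitochondrial windows of other lists. Members and gene lists were chosen with earlier results of these data known. Alternatives left out each replicate and changed the pseudocount, read filter, scaling, pairing and treatment of copies. The precision is set by 184 to 2000 reads per window, and counting errors cover counting only.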

Additional observations from a re-analysis of the deposited data

How the results depend on the processing

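The windows were selected for being higher, so their direction under other settings is no sign of stability. The minimum of 50 reads removed no window. The SD of the median over the mitochondrial windows was small (0.0034), and slight shifts exceed it. The median log2 fold change of the mitochondrial windows, 1.05, was 0.99 to 1.05 when 1 replicate was left out, 1.03 with a pseudocount of 1 RPKM, 1.01 with siNC replicates 2 and 3 averaged first, 1.06 with the reads of matching copy windows added and 1.01 in windows without a nuclear copy. Scaling to the listed windows raised it to 1.63 (TMM) and 1.69 (DESeq2 factors), the chromosome 1 copy from 1.17 to 1.76 and 1.81, and the ratio of read shares from 1.91 to 2.87 and 2.98. By construction these factors centre a list in which most windows were lower. Without 1 replicate the copy ranged from 1.12 to 1.26, the ratio of shares from 1.86 to 1.94, the window listed for Tet2 KO from 0.89 to 0.97 and the difference between gene classes from 0.48 to 0.58. The edgeR median was 1.03. With the replicate block, which treats same-numbered libraries as pairs, it was 1.04, with DESeq2 and recovered totals 1.04 and with TMM factors 1.62.

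Only listed windows have values, so changes below the threshold of the lists, in unlisted mitochondrial windows or in WT cells given siNsun2, were not detectable here. Selecting windows on the same libraries can inflate their differences, and by how much was not measured. The samples hold no input library of an siRNA group, and mitochondrial copy number and methylation cannot be told apart.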
